A study of Mus musculus with 6 samples.

Results

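The expression of 9 chemokine receptor genes, Ccr1, Ccr2, Ccr6, Ccr7, Ccr10, Cxcr2, Cxcr3, Cxcr4 and Cx3cr1, was examined in RNA sequencing data of whole skin. They were taken by symbol from a table of 23951 genes, and each of the 9 has 1 row there. The skin came from 3 JunBΔep mice (JunB dep in the labels) and 3 littermate controls (JunB +/+), all C57Bl/6 and 6 to 7 months old, and the samples are named by group and by the replicate number 0, 1 or 2 of their labels. JunB is deleted in the JunBΔep mice in cells that express keratin 5, so that leukocytes, fibroblasts and other skin cells keep the gene, and the control mice keep it everywhere. The JunBΔep skin was taken from lesions. Where 3 values are given for a group, they follow the order of the replicate numbers. The labels do not give the sex of each mouse, and 1 sample is 1 mouse.

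Chemokine receptors are G protein-coupled receptors with 7 transmembrane helices that guide leukocytes along gradients of small secreted chemokines. Binding of a ligand activates Gi proteins, whose beta-gamma subunits drive phosphoinositide 3-kinase and phospholipase C, and arrestins then take the receptor off the surface. In skin, receptors are carried mainly by the leukocytes that reside in it or enter it. Cxcr2 and Ccr1 serve neutrophils and monocytes, Ccr2 and Cx3cr1 monocytes and macrophages, Ccr7 the dendritic cells and T cells that leave for lymph nodes, Cxcr3, Ccr6 and Ccr10 subsets of lymphocytes, and Cxcr4 most leukocytes and some other cells.

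The values are FPKM (read fragments scaled to transcript length and to the mapped total of the library), so levels can be set beside each other between genes. They sum to 481078 to 630363 FPKM per mouse, and no counting interval is given because read numbers are unknown. Junb was at 56.9 to 72.4 FPKM (controls) and at 42.8 and 28.0 FPKM for JunBΔep replicates 1 and 2. It was at 129.6 FPKM within the library labelled JunBΔep replicate 0. Whole skin includes cells that keep the gene, so this level does not decide whether the label is right, which was not tested. That library also held 5 mucosal epithelium markers at a summed 3798 FPKM, while no other library exceeded 1.41 FPKM, and the fold changes of receptors that rest on it are given with and without it. All 6 keratinocyte markers were tested, with sums of 6899 to 11230 FPKM (controls) and 7040 to 12596 FPKM (JunBΔep), and Krt14 is listed at 0 in the library labelled JunBΔep replicate 0 beside Krt5 at 3725 FPKM. Skeletal muscle markers were called lower in 8 of 10 genes, against 1.38% of all genes tested. They summed to 17181 to 20947 FPKM (controls) and to 1744.5, 1607 and 3758 FPKM (JunBΔep). No gene was called when any control or JunBΔep replicate 1 was left out. In whole skin, fewer cells of a type and less RNA per cell cannot be told apart.

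The sequences upstream of Cxcr2, Ccr1 and Cxcr4 are shown because Cxcr2 and Ccr1 had the most similar pattern over the 6 mice of any 2 members, and because Cxcr4 had the highest mean of the 9 members in JunBΔep skin. They are the 250 bases before the transcription start in RefSeq on GRCm38.p6, 5′ to 3′ on the gene's strand, at chr1:74153744-74153993 (plus strand) for Cxcr2, chr9:123968693-123968942 (minus strand) for Ccr1 and chr1:128592300-128592549 (minus strand) for Cxcr4. Capitals mark matches, on either strand, to GGAAGT, which extends the ETS factor core GGAA, or to TATAAA, the TATA box. Matches to GGAA alone were not marked or counted.
Cxcr2: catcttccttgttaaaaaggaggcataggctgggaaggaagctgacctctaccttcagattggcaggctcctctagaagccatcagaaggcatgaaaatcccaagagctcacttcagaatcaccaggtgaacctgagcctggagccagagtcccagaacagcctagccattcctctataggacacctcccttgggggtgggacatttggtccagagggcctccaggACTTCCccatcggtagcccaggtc
Ccr1: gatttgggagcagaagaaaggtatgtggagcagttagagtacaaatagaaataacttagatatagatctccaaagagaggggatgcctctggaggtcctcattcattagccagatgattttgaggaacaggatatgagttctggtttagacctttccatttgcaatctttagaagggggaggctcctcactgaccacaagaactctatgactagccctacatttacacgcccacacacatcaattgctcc
Cxcr4: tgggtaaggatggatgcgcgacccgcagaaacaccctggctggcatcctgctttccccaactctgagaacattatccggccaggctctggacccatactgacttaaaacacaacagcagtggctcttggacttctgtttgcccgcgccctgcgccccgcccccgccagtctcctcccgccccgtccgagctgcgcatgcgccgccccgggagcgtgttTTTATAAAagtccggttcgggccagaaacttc
The Cxcr2 window holds 1 match to GGAAGT, on the minus strand, starting 24 bases before the start. The Cxcr4 window holds TATAAA from 30 bases before the start, overlapped by a match on the other strand from 32 bases before it, and the Ccr1 window holds no match to either motif. The Cxcr4 window is rich in G and C, at 61.2% with 19 CG dinucleotides, while those of Cxcr2 and Ccr1 are at 54.4% and 43.6% with 1 CG each. The medians over all windows are 52.4% and 6. TGANTCA, the binding motif of AP-1 dimers such as those JunB forms, was found in none of the 8 windows of the 7 members with an entry, and in 6.75% of all 32851 windows. GGAAGT occurs in 19.7% and TATAAA in 12.4% of them. A match, or its absence in a window of this length, is a description of the letters.

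On mm9, the build of the authors' alignment, Cxcr2 lies on chromosome 1 (74200563 to 74207812), 30.5 kb from Cxcr1, and Cxcr4 on the same chromosome at 130484776 to 130488870. Ccr1 (123876959 to 123883525) and Ccr2 (124016689 to 124028296) lie on chromosome 9 in a cluster of receptor genes with Ccr9, Cxcr6, Xcr1, Ccr1l1 and Ccr3, and Cx3cr1 (119957811 to 119977400) lies on the same chromosome outside it. Ccr7 (99005510 to 99016391) and Ccr10 (101034311 to 101036757) are on chromosome 11. Ccr6 is on chromosome 17 (8429077 to 8449992) and Cxcr3 on chromosome X (98926874 to 98929608). All 9 are annotated as protein coding.

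In control skin, Ccr2 and Cxcr4 had the highest levels of the 9 members, and the other 7 were at 2.45 FPKM or less. Ccr2 was at 5.47 ± 1.29 FPKM (SD, n = 3) and Cxcr4 at 4.54 ± 1.62 FPKM (SD, n = 3), with overlapping ranges. Cxcr2 followed at 1.66 ± 0.706 FPKM (SD, n = 3), below every value of Cxcr4. From Cxcr2 down, through Cxcr3, Cx3cr1, Ccr1, Ccr10, Ccr7 and Ccr6, the ranges of each gene and the next overlapped in the 3 controls. In JunBΔep skin the order of the means was Cxcr4, Cxcr2, Ccr1, Ccr2, Ccr7, Cx3cr1, Cxcr3, Ccr10 and Ccr6, and the only neighbours whose ranges were separate were Ccr2 and Ccr7. Ccr6 was the lowest of the 9 in both groups, at 0.241 and 0.216 FPKM on average.

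**Figure D1:**
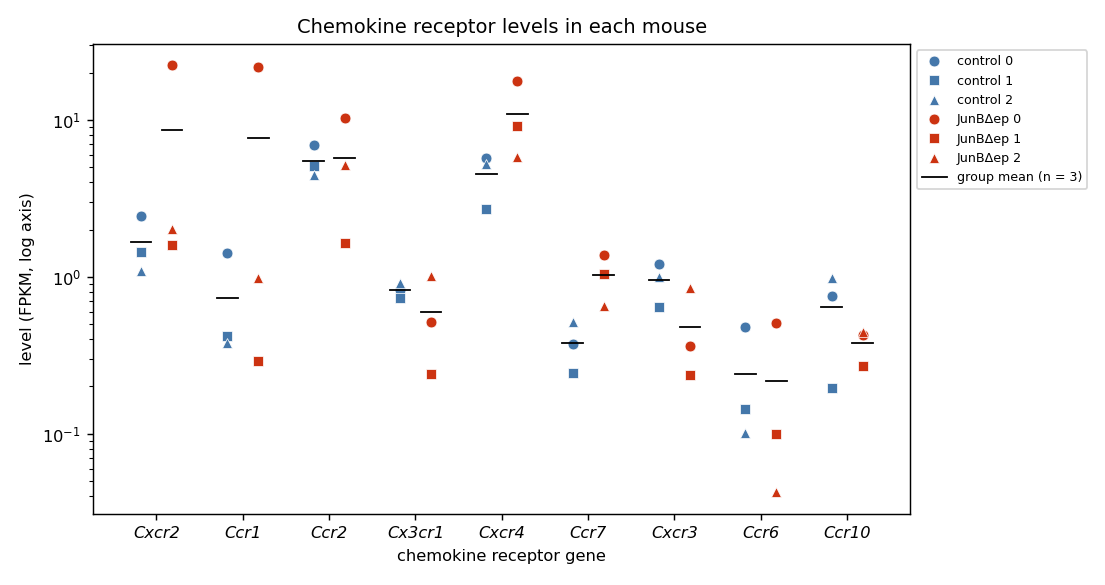
Level of the 9 chemokine receptor genes in each mouse (FPKM, log axis), with controls in blue, JunBΔep mice in red, the replicate number as the symbol and the group mean as a bar (n = 3). Cxcr2 and Ccr1 at 22.3 and 21.9 FPKM in JunBΔep 0 stand far above the other 5 mice, while for Ccr7 and Cxcr4 the 3 JunBΔep points lie above the 3 control points.

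No receptor was called. Over the 17021 genes tested with limma at an adjusted p below 0.05, 1.38% were called, all lower in JunBΔep mice, and 0 of the 9 members were among them. Without the library labelled JunBΔep replicate 0, 11 genes were called higher and 120 lower, again with 0 members. At an unadjusted p below 0.05, which 7.56% of all genes reached, 1 member, Ccr7, was included. It was higher, as 1.43% of all genes were at that p, while 6.13% were lower and 0 members were among these. The point estimates of 4 members were positive and those of 5 negative, with a median log2 fold change of -0.07 against 0.03 over all tested genes, of which 53.4% had a positive estimate. The groups did not overlap for 2 members, Ccr7 and Cxcr4, both higher in JunBΔep skin, and 5.62% of all tested genes were separated in that direction. In the direction of lower expression 0 members were separated, against 9.16% of genes, and 14.8% were separated in either direction. For 6 of the 9 the highest of the 6 values was in the library labelled JunBΔep replicate 0, which was highest for 29.7% of all tested genes. JunBΔep replicate 1 had the lowest value for 4 of the 9, against 17.6% of all tested genes.

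Cxcr2, the receptor for Cxcl1, Cxcl2 and the related chemokines that draw neutrophils, was at 2.45, 1.44 and 1.09 FPKM (controls) and at 22.3, 1.60 and 2.03 FPKM (JunBΔep). A 9.10-fold gap separated the library labelled JunBΔep replicate 0 from the highest control, and both other JunBΔep mice lay within the control range. Its log2 fold change, on the scale of log2(FPKM + 0.5) used throughout, was 1.25 (standard error, SE, 0.94, limma adjusted p = 0.722), and 0.14 without that library. Ccr1, a receptor for Ccl3, Ccl5 and other inflammatory chemokines, had the same form. It was at 1.41, 0.417 and 0.381 FPKM (controls) and at 21.9, 0.292 and 0.979 FPKM (JunBΔep). Only the library labelled JunBΔep replicate 0 exceeded the controls, by 15.5-fold over the highest of them, and replicate 1 was below all 3. The log2 fold change of Ccr1 was 1.36 (SE 1.25, limma adjusted p = 0.726), and -0.10 without that library. Across the 6 mice the log2 levels of Ccr1 and Cxcr2 had a Pearson r of 0.991, the highest of the member pairs, and the library labelled JunBΔep replicate 0 lies far from the other 5 in both genes. With 5 mice left, no r is given without it. Cxcr1, the neighbour of Cxcr2 and a further receptor of neutrophils, was at 5.07 FPKM within the library labelled JunBΔep replicate 0 and at most 0.0850 FPKM in the other 5, with 3 of them listed at 0.

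Most neutrophil markers were also highest in that library. Of the 11 markers on the list, 10 were analysed, and 7 of them peaked in the library labelled JunBΔep replicate 0. These 7 include Cxcr1, described above, and 29.7% of all tested genes were highest in that library. The summed level of the 10 markers ranged from 11.1 to 411 FPKM (controls) and from 6.55 to 612 FPKM (JunBΔep). Ltf, the granule and secretory protein lactoferrin, had another pattern, at 53.4, 0.0703 and 175 FPKM (controls) and 4.66, 2.03 and 86.5 FPKM (JunBΔep). Without Ltf the sums were 7.78 to 358 FPKM (controls) and 607, 4.52 and 12.2 FPKM (JunBΔep). Csf3r, the G-CSF receptor of neutrophils, was at 44.3 FPKM there and at most 3.70 FPKM elsewhere, and Fpr1, a receptor for bacterial peptides, at 28.2 and at most 0.800 FPKM. Mmp8 is listed at 0 in JunBΔep replicate 1, and Cxcr1 there and in control replicates 1 and 2. Control replicate 0, which had the highest Cxcr2 and Ccr1 of the controls, held the granule genes Ngp and Camp at 195.5 and 112.6 FPKM, against 21.6 and 4.37 FPKM within the library labelled JunBΔep replicate 0 and less in the other 4. It also held erythrocyte genes at a summed 1785 FPKM, against 43.2 to 482 FPKM in the others. The part of these cells in the receptor values was not tested.

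Most ligands of Cxcr2 and Ccr1 were, like their receptors, highest in the library labelled JunBΔep replicate 0. The 5 ligands of Cxcr2 summed to 614 FPKM in that library, to 2.87 to 11.8 FPKM (controls), and to 1.19 and 3.50 FPKM for JunBΔep replicates 1 and 2. Cxcl1 was at 221 FPKM in it and 0.722 to 3.69 FPKM in the other mice, and Cxcl5 at 52.0 FPKM and at most 0.0436 FPKM. Ppbp, a platelet chemokine that also binds Cxcr2, did not share this and was highest in control replicate 0 at 7.91 FPKM. Among the Ccr1 ligands, Ccl3 was at 57.3 FPKM within the library labelled JunBΔep replicate 0 and at most 0.305 FPKM elsewhere, whereas Ccl5 was at 1.89 FPKM in it and 1.02 to 6.03 FPKM elsewhere. For JunBΔep replicates 1 and 2, Cxcl2 (0.279 and 0.926 FPKM) and Cxcl3 (0.139 and 0.188 FPKM) were above every control, and neither gene was called (adjusted p = 0.722 for each from limma).

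**Figure D2:**
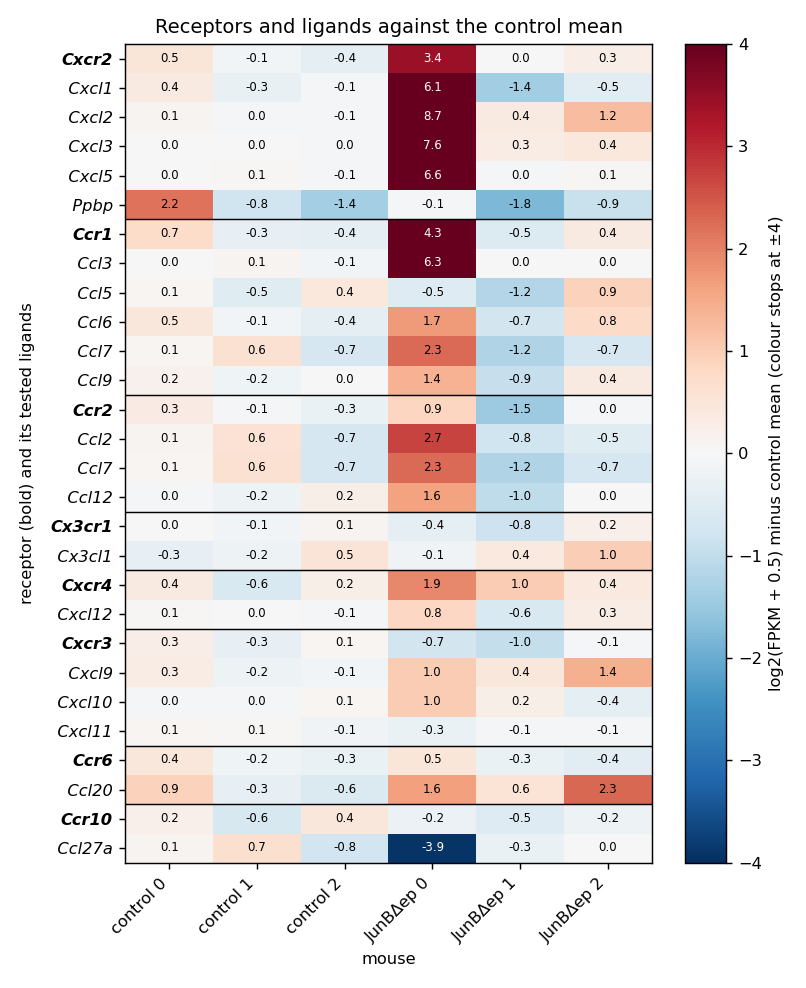
Level of 8 receptors (bold) and their tested ligands in each mouse as log2(FPKM + 0.5) minus the control mean, with red above and blue below it and the colour ending at 4 in either direction. In JunBΔep 0, Cxcr2 is at 3.45 with 4 of its 5 ligands higher still, and Ccr1 is at 4.27, while Cxcr2 and Ccr1 lie between -0.55 and 0.35 in JunBΔep 1 and 2.

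Ccr2, which Ly6C-high monocytes need to leave the bone marrow, showed a wide spread in JunBΔep skin and similar group means. It was at 6.91, 5.07 and 4.43 FPKM (controls) and at 10.3, 1.64 and 5.20 FPKM (JunBΔep). The 3 JunBΔep mice thus fell above, below and within the control range. The log2 fold change was -0.21, with a 95% interval of -1.65 to 1.23 (limma adjusted p = 0.91), so changes of over 2-fold in either direction lie within the interval. It was -0.75 without the library labelled JunBΔep replicate 0 and 0.41 without JunBΔep replicate 1. Its ligand Ccl2 was at 2.26 to 6.01 FPKM (controls) and at 28.3, 2.03 and 2.64 FPKM (JunBΔep). Ccl7 was at 34.4 FPKM within the library labelled JunBΔep replicate 0 and 2.70 to 10.6 FPKM elsewhere, and Ccl12 at 5.67 FPKM and 0.489 to 1.85 FPKM. All 3 ligands were highest in that library and lowest in JunBΔep replicate 1, as Ccr2 itself was.

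Cx3cr1, the receptor for the membrane-bound chemokine Cx3cl1 on monocytes and tissue macrophages, was the least variable member in control skin, at 0.822, 0.732 and 0.918 FPKM. In JunBΔep replicates 0, 1 and 2 it was at 0.518, 0.242 and 1.02 FPKM, with 2 mice below and 1 above the controls (log2 fold change -0.34, SE 0.29, limma adjusted p = 0.724). The estimate was -0.09 without JunBΔep replicate 1 and -0.61 without JunBΔep replicate 2. It did not rank highest in the library labelled JunBΔep replicate 0, unlike Ccr1 and Ccr2. Monocyte and macrophage markers, 11 of 11 in the table, were lowest in JunBΔep replicate 1 in 11 of 11 cases, with sums of 380 to 730 FPKM (controls) and 943, 159 and 386 FPKM (JunBΔep). Without Lyz2 the sums were 208 to 364 FPKM (controls) and 386, 95.2 and 224 FPKM (JunBΔep), and 9 of the 11 markers had a negative estimate. Cx3cl1 was at 4.07 to 7.70 FPKM (controls) and 4.70, 7.00 and 10.9 FPKM (JunBΔep).

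Ccr7 and Cxcr4 were the members whose JunBΔep values all lay above the controls. Ccr7, which takes dendritic cells and T cells to the lymph node, was at 0.373, 0.244 and 0.514 FPKM (controls) and at 1.38, 1.04 and 0.653 FPKM (JunBΔep). Every JunBΔep mouse exceeded every control. The log2 fold change of Ccr7 was 0.78 (SE 0.25, 95% interval 0.17 to 1.40), the p was 0.0209 before adjustment, and the adjusted p was 0.446 from limma. Without the library labelled JunBΔep replicate 0 it was 0.62 (limma adjusted p = 0.577). The Ccr7 ligands Ccl19, Ccl21a, Ccl21b and Ccl21c are listed at 0 in all 6 mice, as are Ccl27b and Ccl28. Such a 0 can be a failed estimate, and no level is given for them. Fscn1, an actin-bundling protein of mature dendritic cells, was at 6.75, 7.21 and 10.1 FPKM (controls) and 31.3, 12.5 and 13.2 FPKM (JunBΔep), above every control. Flt3, a growth factor receptor of dendritic cells, was below every control, at 1.58, 1.13 and 0.971 FPKM (controls) and 0.764, 0.452 and 0.575 FPKM (JunBΔep), and 5 of the 7 tested dendritic cell markers had a negative estimate. Over the 8 dendritic cell markers, 7 of which were tested, the sum was 20.2 to 23.5 FPKM (controls) and 42.9, 21.9 and 31.8 FPKM (JunBΔep). Without Fscn1 it was 10.1 to 16.7 FPKM (controls) and 11.7, 9.48 and 18.6 FPKM (JunBΔep), and Lamp3 is listed at 0 in 3 mice.

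Cxcr4, the receptor for Cxcl12 on most leukocytes, was at 5.72, 2.70 and 5.21 FPKM (controls) and at 17.8, 9.19 and 5.85 FPKM (JunBΔep). The groups were separate by a small margin, since JunBΔep replicate 2 lay just above control replicate 0. The log2 fold change of Cxcr4 was 1.10 (SE 0.46, 95% interval -0.03 to 2.23, limma adjusted p = 0.673), and 0.70 without the library labelled JunBΔep replicate 0. Cxcl12 was at 72.1 to 79.2 FPKM (controls) and at 135.6, 49.6 and 93.3 FPKM (JunBΔep). In JunBΔep replicate 1, Cxcr4 was therefore above and Cxcl12 below every control. Ccr7 and Cxcr4 had a Pearson r of 0.949 over the 6 mice.

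The lymphocyte receptors showed no member above the controls in all JunBΔep mice. Cxcr3, the receptor of effector T cells and NK cells for Cxcl9, Cxcl10 and Cxcl11, was at 1.20, 0.644 and 0.999 FPKM (controls) and 0.361, 0.238 and 0.847 FPKM (JunBΔep). JunBΔep replicates 0 and 1 were below all controls, and replicate 2 was within their range. The log2 fold change of Cxcr3 was -0.59 (SE 0.30, limma adjusted p = 0.72), and -0.52 without the library labelled JunBΔep replicate 0. Its ligand Cxcl9 was at 0.896 to 1.47 FPKM (controls) and 2.69, 1.67 and 3.81 FPKM (JunBΔep), above every control in each (limma adjusted p = 0.474). Cxcl10 was at 1.93 to 2.13 FPKM (controls) and 4.59, 2.46 and 1.39 FPKM (JunBΔep), and Cxcl11 at 0.107 to 0.203 FPKM (controls) and 0.0564, 0.140 and 0.136 FPKM (JunBΔep). Of the 7 NK cell markers in the table, 5 passed the filter, and their list summed to 2.82 to 4.60 FPKM (controls) and 1.20, 2.09 and 5.57 FPKM (JunBΔep), with Ncr1 listed at 0 in the library labelled JunBΔep replicate 0.

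Ccr6, carried by IL-17-producing T cells and drawn by Ccl20, was at 0.480, 0.143 and 0.101 FPKM (controls) and 0.508, 0.0990 and 0.0422 FPKM (JunBΔep). Its values were highest in replicate 0 of each group, and the groups overlapped across nearly their whole range (log2 fold change -0.07, SE 0.32, limma adjusted p = 0.944). The estimate was -0.34 without the library labelled JunBΔep replicate 0 and 0.15 without control replicate 0. Ccl20 was at 3.33, 1.12 and 0.846 FPKM (controls) and 5.81, 2.47 and 9.43 FPKM (JunBΔep), a log2 fold change of 1.49 (limma adjusted p = 0.633). Ccr10, the receptor of skin-homing T cells for the keratinocyte chemokine Ccl27, was at 0.760, 0.196 and 0.981 FPKM (controls) and 0.428, 0.269 and 0.443 FPKM (JunBΔep). All 3 JunBΔep values lay inside the control range (log2 fold change -0.32, SE 0.32, limma adjusted p = 0.742). The estimate was -0.64 without control replicate 1 and -0.10 without control replicate 2. Ccl27a was at 119, 176 and 66.0 FPKM (controls) and 92.4 and 114 FPKM for JunBΔep replicates 1 and 2, but at 6.85 FPKM within the library labelled JunBΔep replicate 0. T cell markers, 8 of 9 on the list tested, summed to 70.6 to 123 FPKM (controls) and 138, 75.1 and 85.6 FPKM (JunBΔep). Without Thy1, which other skin cells also express, the sum was 18.9 to 42.3 FPKM (controls) and 17.6, 17.8 and 30.0 FPKM (JunBΔep), and 6 of the 8 tested markers had a negative estimate. Cd3e, a chain of the T cell receptor complex, was at 3.70 to 8.44 FPKM (controls) and 1.96, 3.31 and 6.07 FPKM (JunBΔep). The part of cell numbers in these values was not tested.

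The make-up of the receptor signal was set out as shares of the summed FPKM. The 9 receptors summed to 20.1, 11.6 and 14.6 FPKM (controls) and to 75.4, 14.6 and 17.1 FPKM (JunBΔep). In the library labelled JunBΔep replicate 0, Cxcr2 made up 29.6% and Ccr1 29.0% of the sum, against 7.46% to 12.4% and 2.00% to 7.03% in the other 5 mice. In JunBΔep replicate 1, Cxcr4 made up 62.9%, against 23.3% to 35.6% in the other 5. JunBΔep replicate 2 resembled the controls, with 30.5% Ccr2, 34.3% Cxcr4 and 11.9% Cxcr2. The share of Cxcr3 was 5.97%, 5.56% and 6.83% in controls and 0.479%, 1.63% and 4.96% in JunBΔep mice.

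**Figure D3:**
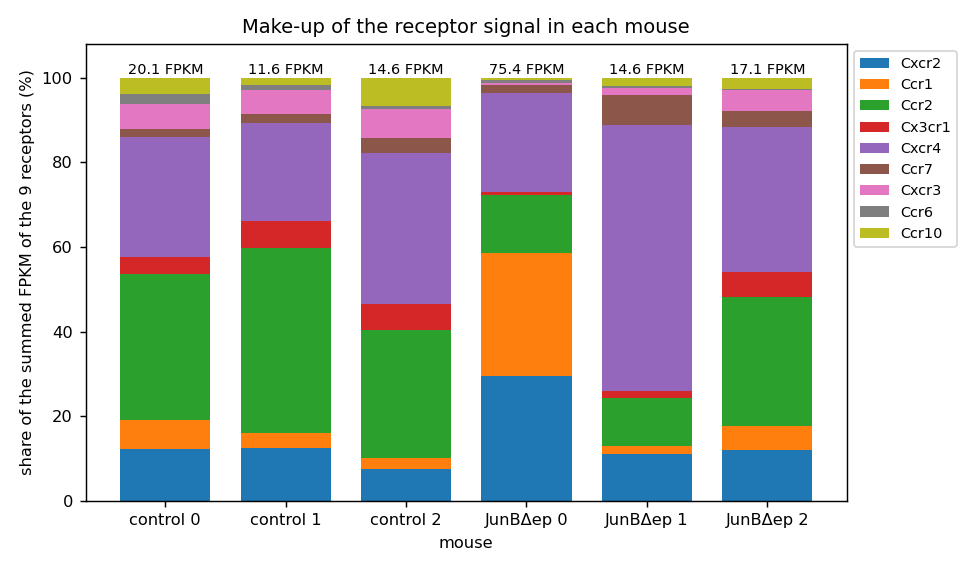
Share of each receptor in the summed FPKM of the 9 receptors in each mouse (%), with that sum above each bar. Ccr2 and Cxcr4 make up most of the controls and of JunBΔep 2, Cxcr2 and Ccr1 take 29.6% and 29.0% of JunBΔep 0, and Cxcr4 takes 62.9% of JunBΔep 1.

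Leukocyte RNA also differed between the mice. Ptprc (CD45), the surface phosphatase of all nucleated blood cells, was at 8.21, 5.04 and 4.79 FPKM (controls) and 15.9, 2.13 and 4.64 FPKM (JunBΔep), and all 4 leukocyte markers were highest in replicate 0 and lowest in replicate 1 of the JunBΔep mice. Each receptor was therefore set beside Ptprc of the same library. Cxcr2 was at 0.299, 0.286 and 0.228 of the Ptprc FPKM (controls) and at 1.40, 0.751 and 0.438 of it in JunBΔep mice, and Cxcr4 at 0.697, 0.535 and 1.09 in controls and 1.12, 4.31 and 1.26 in JunBΔep mice. For these 2 of 9 receptors every JunBΔep ratio was above every control ratio, as it was for 2.02% of 17020 genes. No receptor had all JunBΔep ratios below the controls, against 3.16% of these genes, or 2.13% on the log2(FPKM + 0.5) scale. On the log2(FPKM + 0.5) scale Ccr1 was separated as well, making 3 of 9 against 1.98% of genes, but its plain ratio in JunBΔep replicate 1, 0.137, was below the 0.172 of control replicate 0.

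In the test over mice, the log2 difference between receptor and Ptprc was higher in JunBΔep than in control skin by 1.31 for Cxcr2, 1.17 for Cxcr4 and 1.43 for Ccr1. The exact two-sided permutation p was 0.1 for each, the smallest that 3 mice against 3 allow, and 0.3 after adjustment over the 9 receptors. Without the library labelled JunBΔep replicate 0 the differences were 0.93 for Cxcr2, 1.48 for Cxcr4 and 0.69 for Ccr1, and that of Cxcr4 was 0.62 without JunBΔep replicate 1. The difference was 0.85 for Ccr7, whose ratio to Ptprc was highest in JunBΔep replicate 1 at 0.488 and at most 0.141 in the other 5 mice (exact permutation p = 0.3). That difference was 1.40 without the library labelled JunBΔep replicate 0 and 0.23 without JunBΔep replicate 1. Ccr2 was at 0.842 to 1.01 of Ptprc in controls and 0.647 to 1.12 in JunBΔep mice. Cxcr3, at 0.128 to 0.209 of Ptprc in controls, was at 0.0227 in the library labelled JunBΔep replicate 0 and at 0.112 and 0.183 in JunBΔep replicates 1 and 2.

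**Figure D4:**
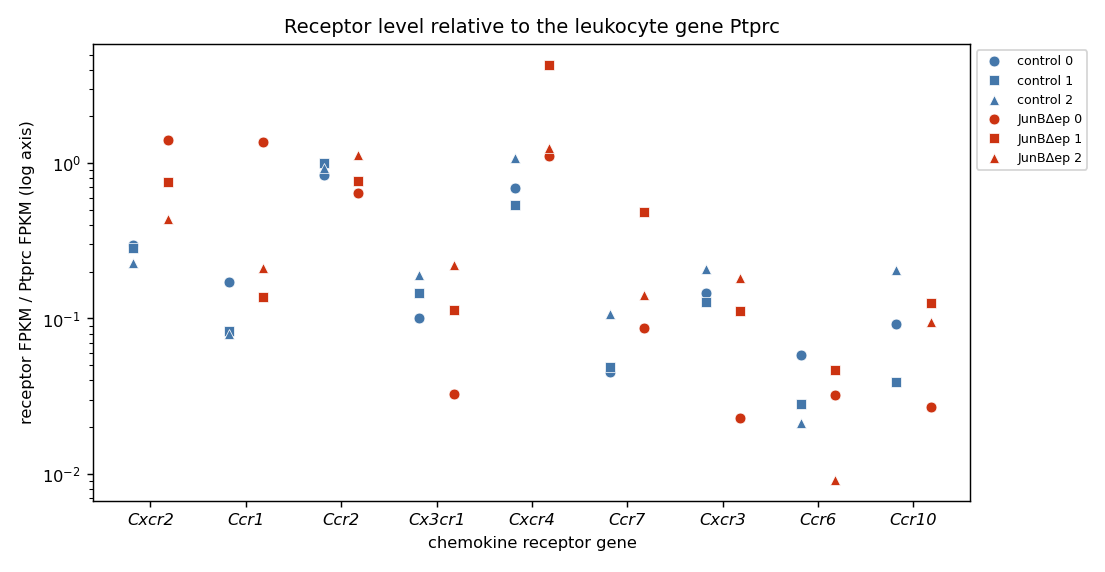
FPKM of each receptor divided by the FPKM of Ptprc in the same mouse (log axis), with controls in blue, JunBΔep mice in red and the replicate number as the symbol. The JunBΔep ratios of Cxcr2 (0.438 to 1.40) and Cxcr4 (1.12 to 4.31) lie above all control ratios, and those of the other 7 receptors overlap with the controls.

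The rest of the family was counted from a list. Of 10 other signalling receptors and 5 atypical receptors, which bind chemokines without activating G proteins or only present them, 14 were tested and 0 were called in either direction by limma, with 1, Ackr2, lower at an unadjusted p below 0.05. Of all genes, 1.38% were called and 6.13% were lower at that unadjusted p. The groups were separated with JunBΔep lower for 3 of the 14, Ackr2, Ccr3 and Xcr1, against 9.16% of all genes. Ackr2, a scavenger of inflammatory CC chemokines on lymphatic endothelium, was at 7.15, 3.41 and 3.90 FPKM (controls) and 1.37, 1.27 and 3.36 FPKM (JunBΔep), below every control (log2 fold change -1.12, SE 0.42, limma adjusted p = 0.588). Ackr4, which removes Ccl19 and Ccl21, was at 19.6 to 31.4 FPKM (controls) and 6.37, 11.7 and 21.7 FPKM (JunBΔep). Ackr1, the chemokine carrier of venules and erythrocytes, was at 18.4 to 27.8 FPKM (controls) and 18.9, 7.28 and 24.3 FPKM (JunBΔep). Ccr3, the eosinophil receptor, and Xcr1, of cross-presenting dendritic cells, were below every control in all 3 JunBΔep mice, with Ccr3 at 0.0840 to 0.577 FPKM (controls) and 0.0365 to 0.0751 FPKM (JunBΔep) and Xcr1 at 0.247 to 0.287 FPKM (controls) and 0.181 to 0.221 FPKM (JunBΔep). Neither was called (limma adjusted p = 0.722 and 0.74). Ccr4, of skin-homing T cells, was at 2.83 to 5.12 FPKM (controls) and 2.31 to 3.07 FPKM (JunBΔep).

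**Figure D5:**
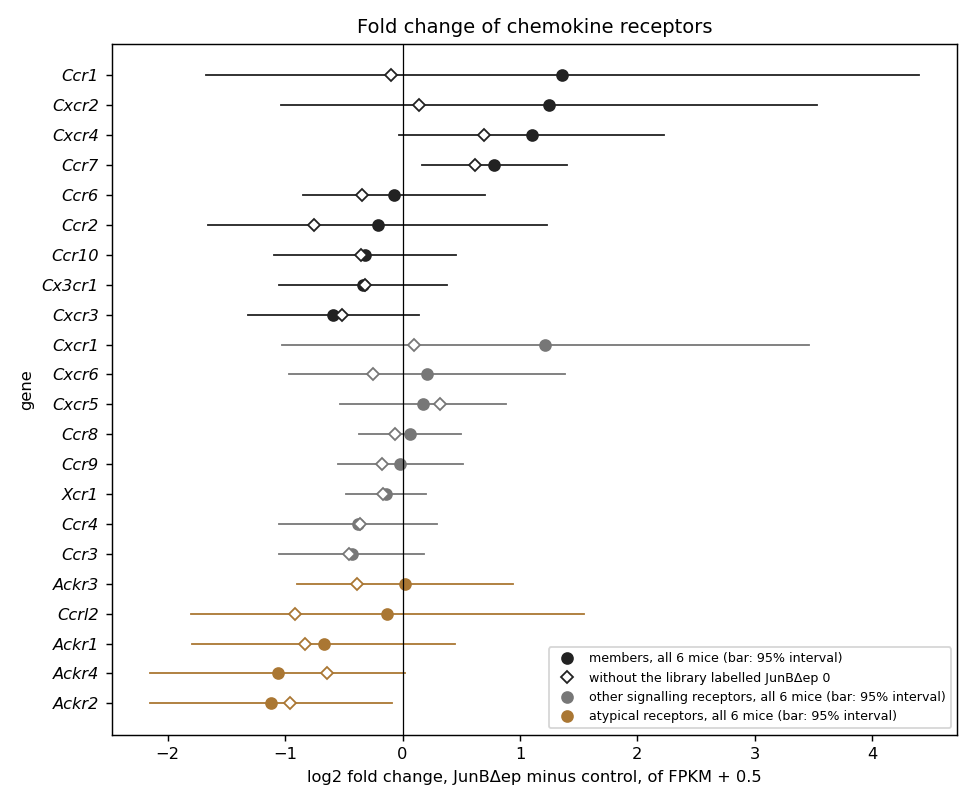
Log2 fold change of the 9 members and of further tested receptors, JunBΔep minus control, with the 95% interval from limma (filled points, all 6 mice) and the estimate without the library labelled JunBΔep 0 (open diamonds). Among the members, Ccr7 has an interval that lies above 0 (0.17 to 1.40) before adjustment, and the estimates of Ccr1 and Cxcr2 move to -0.10 and 0.14 without that library.

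Genes that act downstream of the receptors were not called either. Of 25 signalling genes tested, limma called 0, and 3 reached an unadjusted p below 0.05, all higher, namely Gnb1, Grk6 and Rgs16, against 1.43% of all genes higher at that p. Rgs16, which speeds the switch-off of G proteins after receptor activation, was at 1.08, 1.40 and 2.23 FPKM (controls) and 4.10, 3.35 and 4.81 FPKM (JunBΔep). The 3 JunBΔep mice exceeded all controls, with a log2 fold change of 1.17 (SE 0.28, limma adjusted p = 0.207), and 1.16 without the library labelled JunBΔep replicate 0. Grk6, a kinase that readies receptors for arrestin binding, was at 18.5 to 21.2 FPKM (controls) and 32.2, 30.5 and 22.8 FPKM (JunBΔep). Rac2, the haematopoietic GTPase of leukocyte migration, was at 13.1, 5.17 and 3.96 FPKM (controls) and 25.4, 2.48 and 5.07 FPKM (JunBΔep). Of the 25 receptor ligands, 19 were tested, 6 are listed at 0 in all mice, and limma called 0. Of all genes, limma called 1.38%. Ccl20 and Cxcl9 were the 2 ligands at an unadjusted p below 0.05, both higher, against 1.43% of all genes higher at that p.

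The genes most alike to a member over the 6 mice were found by Pearson r on the log2 scale among 13738 genes whose mean reached 1 FPKM. Pak6, Il1f5 and Sox7 were nearest to Cxcr2 (r = 1.000 to 0.998), with Il1f5, an IL-36 receptor antagonist, at 131 FPKM within the library labelled JunBΔep replicate 0 and 34.9 to 45.3 FPKM elsewhere. Plekhm3, Erlin1 and Efhd2 were nearest to Ccr1 (0.998 to 0.997), and Thbs3, Trim30d and 3110057O12Rik to Ccr2 (0.994 to 1.000). For Ccr7 they were 1700055N04Rik, Traf7 and Fgd6 (0.997 to 0.995) and for Cxcr4 Dock5, Pcf11 and Htt (0.995 to 0.993). With 6 libraries and this many genes, values of this size describe a shared order and spacing of 6 points. For Cxcr2 and Ccr1, 1 of these points, the library labelled JunBΔep replicate 0, lies far from the others.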

How the data were processed

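RNA of whole skin from 3 JunBΔep and 3 control mice was sequenced from stranded poly(A) libraries. The authors aligned reads to mm9 with TopHat 2.0.10, Bowtie 1.0.0 and SAMtools 0.1.19 (versions from the submitters' processing notes and the methods), allowing 2 mismatches and 20 multihits, and deposited FPKM per gene and mouse. The submitters' notes also name Cufflinks, with no version or role, so the tool that computed FPKM is not stated there. The authors' DESeq2 test on counts was not repeated, as read counts were not analysed here. Depth is unknown. Genes below 0.15 FPKM share 1 ratio between libraries in 14.2% to 17.4% of cases (to 3 decimals of log2), by which library totals are 0.955 to 1.14 times that of control replicate 0.

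Values were compared as log2(FPKM + 0.5) with limma 3.58.1 (R 4.3.3) with an intensity trend, two-sided, over 17021 genes whose mean reached 0.1 FPKM, with Benjamini-Hochberg adjustment over all of them and a threshold of 0.05. All 9 receptors passed that filter. The procedure was tested on simulated data. Differences from Ptprc were tested by exact permutation over mice. The p-values from limma set the group difference against the spread among mice within groups. Those from permutation set it against regroupings of the 6 mice. Positions follow the GENCODE vM1 annotation of mm9, and upstream sequences are those of RefSeq on GRCm38.p6, where 7 of 9 members matched.

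Members, gene lists and markers were chosen with earlier results of these data known. The genes named are the 9 members, Junb, genes of those lists, and the 3 genes most correlated with a member. Ly6g and Trac were not analysed here, and 1 of the other receptors, included in the counts, is not reported here. Alternatives were other pseudocounts, filters, scalings and limma settings, a replicate block, a block on the number series of the sample titles, each mouse left out and, for counts of called genes, an adjusted p of 0.1. The lower title number series holds control replicates 0 and 1 and the library labelled JunBΔep replicate 0. The higher series holds control replicate 2 and JunBΔep replicates 1 and 2. The series are therefore unbalanced between the groups, and no other JunBΔep library shares the series of the library labelled JunBΔep replicate 0. Whether the series are batches was not tested. A ratio to Ptprc with no pseudocount was added after seeing the data. Python 3.11.15 with pandas 2.3.3 drew the figures through matplotlib 3.10.9.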

Additional observations from a re-analysis of the deposited data

How the results depend on the processing

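The count of members, other receptors, ligands and signalling genes called was 0 in all 17 alternatives. Over all genes, 235 were called, 0 with the replicate block, 0 with a block on the title number series, and 0 to 251 with a mouse left out (0 without any of the 3 controls or without JunBΔep replicate 1, 131 without the library labelled JunBΔep replicate 0, of which 11 were higher). Whether the replicate numbers pair the mice is not known. The deviations of same-numbered mice from their group means correlated at 0.12, -0.23 and -0.43, and not every sample correlated best with its own number. With 3 mice per group these deviations are tied to each other, so their correlations cannot decide the question.

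The log2 fold changes of Ccr7, Cxcr2 and Cxcr4 stayed positive and those of Ccr10, Cxcr3 and Cx3cr1 negative in all alternatives in which they were tested, with adjusted p from 0.16 to 0.953. Ccr6, Ccr7, Ccr10, Cxcr3 and Cx3cr1 were not tested at a mean of at least 1 FPKM. Ccr2 turned to 0.12 with the title number series block, Ccr6 to 0.13 with it and to 0.029 after quantile normalization, and Junb to 0.14 with it. That block moved Ccr1 to 2.19 and Cxcr2 to 1.89. With a mouse left out, Ccr1 ranged from -0.10 to 2.31, Ccr2 from -0.75 to 0.41, Ccr6 from -0.34 to 0.15, Ccr7 from 0.62 to 0.97, Ccr10 from -0.64 to -0.10, Cxcr2 from 0.14 to 1.86, Cxcr3 from -0.84 to -0.41, Cxcr4 from 0.70 to 1.46, Cx3cr1 from -0.61 to -0.09 and Junb from -0.84 to 0.25. Relative to Ptprc these ranges were -0.34 to 0.035 for Ccr2, -0.50 to 0.44 for Ccr6, -0.75 to 0.43 for Ccr10, -0.94 to 0.27 for Cxcr3 and -0.66 to 0.47 for Cx3cr1, and Ccr6 was at 0.00046 with a pseudocount of 1. With a mouse left out, Cxcr2 relative to Ptprc ranged from 0.93 to 1.68, Cxcr4 from 0.62 to 1.48, Ccr1 from 0.69 to 1.81 and Ccr7 from 0.23 to 1.40. The cause was not tested. With no pseudocount the exact p was 0.1 for Cxcr2 and Cxcr4 and 0.2 for Ccr1. Depth is unknown, which limits what can be said of receptors at low FPKM.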
